A study of Mus musculus with 14 samples.

Results

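The core circadian clock genes were followed in RNA sequencing of mouse brown adipose tissue. They were chosen by name: the activators Arntl (ENSMUSG00000055116), Clock (ENSMUSG00000029238) and Npas2 (ENSMUSG00000026077), the repressors Per1 (ENSMUSG00000020893), Per2 (ENSMUSG00000055866), Per3 (ENSMUSG00000028957), Cry1 (ENSMUSG00000020038) and Cry2 (ENSMUSG00000068742), the nuclear receptor Nr1d1 (ENSMUSG00000020889) and the output factor Dbp (ENSMUSG00000059824). All 10 were found among the 35275 genes of the deposited table. All 10 were also among the 13079 genes tested, which had at least 1 FPKM (a fragment count per unit of transcript length and depth) in at least 3 of the 14 libraries. Arntl and Npas2 passed that filter only through knockout animals, so they had to be high there to be tested at all.

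Mice of strain C57BL/6 were 8 weeks old. Controls had the genotype LrpprcFF, with floxed alleles of Lrpprc, a nuclear gene for a mitochondrial RNA-binding protein. Knockouts were LrpprcFF Ucp1-Cre, so they carried the same floxed alleles and a Cre driven by Ucp1, a gene of thermogenic adipocytes. The animals lived at 22 °C (4 controls and 4 knockouts) or at thermoneutrality, 30 °C (3 controls and 3 knockouts), and each library came from 1 animal. Ucp1-Cre leaves Lrpprc intact in cells that do not express Ucp1, and RNA was taken from homogenized tissue, although the stated cell type is brown adipocytes. In such bulk samples fewer cells of a type and less RNA per cell cannot be told apart. The labels give neither the time of day of harvest nor the sex of the animals.

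The circadian clock is a feedback loop of transcription with a period of about a day. ARNTL (also called BMAL1) pairs with CLOCK or NPAS2 and switches on genes with E-box sequences, among them the Per, Cry, Nr1d1 and Dbp genes, and PER and CRY proteins then shut that pair down. NR1D1 (REV-ERBα) represses Arntl and Npas2 through RORE sequences, so transcripts of Arntl and Npas2 normally peak at about the opposite time of day from those of Nr1d1 and Dbp. DBP and its relatives TEF and HLF act on D-box sequences, which NFIL3 also binds as a repressor. In brown fat the clock is known for daily rhythms of thermogenesis and lipid use, and NR1D1 is known as a repressor of Ucp1.

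Libraries held 15.9 to 21.3 M fragments, estimated from the spacing of low FPKM values. Lrpprc, the targeted gene, had 8.84 to 11.2 scaled FPKM in knockouts and 25.3 to 57.3 in controls at 22 °C, and 4.97 to 8.56 against 30.3 to 32.8 at 30 °C. Scaled FPKM, used throughout, is the deposited FPKM divided by a factor per library that sets the median nuclear gene to the same level. The 8 brown adipocyte markers were above 0 in every library, with Ucp1 between 268.6 and 3358 scaled FPKM. Xist had 9.70 to 15.3 scaled FPKM in all 6 animals at 30 °C and at most 0.0139 in the 8 at 22 °C, and the Y-linked Ddx3y had 16.3 to 23.9 at 22 °C and at most 0.0242 at 30 °C. Temperature and sex-linked expression therefore cannot be told apart in any comparison between temperatures. Controls 3 and 4 at 22 °C are the 2 animals with identifiers beginning with R. They did not overlap the other controls at 22 °C in 8 of the 10 clock genes, against 56.6% of all genes tested. The clock genes' values at 22 °C without these 2 animals stand beside that comparison.

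Promoters of 9 of the 10 genes (13 start sites) were found in RefSeq on mouse build GRCm38.p6. Per2 had no entry and was not searched. The 250 bases before each start were searched on both strands for the E-box CACGTG, the D-boxes TTATGTAA and TTACGTAA, the ROREs TAGGTCA and TGGGTCA, and the CRE TGACGTCA, the cAMP response element. None of these motifs overlaps another in the stretches shown. The E-box, found in 6.02% of 32851 promoters of that length, was present before Per1 and Cry1. The D-box, found in 0.931% of promoters, occurred before Per3, at 2 places. None of the 9 genes searched had one of these RORE or CRE letters in this window, while 5.38% and 1.55% of promoters did. The stretches below are shown because they hold the letters through which the loops are known to run, with the matches in capitals, each read 5′ to 3′ on the strand of its gene: Per1 at chr11:69098759-69098818 (plus strand), Per3 at chr4:151044796-151044885 (minus) and Cry1 at chr10:85185085-85185144 (minus).
Per1: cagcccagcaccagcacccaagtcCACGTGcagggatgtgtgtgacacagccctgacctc
Per3: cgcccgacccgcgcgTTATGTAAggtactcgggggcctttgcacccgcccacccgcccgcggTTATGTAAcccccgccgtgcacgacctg
Cry1: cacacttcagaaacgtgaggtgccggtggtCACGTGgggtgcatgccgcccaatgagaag

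The stretches of 3 other clock genes called in the knockouts (values further on) are located here. Ciart, a repressor of the activator pair, is at chr3:95882249-95882368 (minus strand), Tef at chr15:81802523-81802572 (plus) and Nfil3 at chr13:52981040-52981099 (minus). Ciart had 3 E-boxes, Tef 1 E-box, and Nfil3 a RORE read on the other strand. Of the other called genes Hlf held a CRE and Nr1d2 none of these motifs, while Bhlhe41 and Cipc, not called between genotypes, held an E-box and Timeless, also not called, a D-box. A match describes letters only, and binding was not measured.
Ciart: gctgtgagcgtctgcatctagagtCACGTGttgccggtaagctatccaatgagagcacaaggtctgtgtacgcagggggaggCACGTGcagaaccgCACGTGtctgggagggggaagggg
Tef: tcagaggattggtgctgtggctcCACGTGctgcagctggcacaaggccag
Nfil3: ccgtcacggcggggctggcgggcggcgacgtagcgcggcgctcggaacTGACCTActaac

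At 30 °C the clock differed strongly between genotypes. Arntl and Npas2 were higher in knockouts, 5.54-fold and 7.06-fold by group means, and Dbp, Per3, Per2 and Nr1d1 were lower, 2.95-fold, 2.68-fold, 2.58-fold and 1.72-fold. Thus 2 of the 10 genes rose and 4 fell at an adjusted p under 0.05 (limma, Benjamini-Hochberg over 13079 genes), where 8.82% of all genes tested rose and 5.29% fell. The 2 that rose, Arntl and Npas2, were tested only because knockouts were high, so their count is not read against that share. With no filter on low values both were called as well (limma adjusted p = 0.00504 and 0.00093). In FPKM as deposited, without the scaling, the median gene was 0.24 higher on the log2 scale than with it. There 4 of the 10 rose (Clock and Per1 in addition) and 3 fell, where 4280 genes rose and 291 fell. Knockouts and controls were fully separated for 9 of the 10 genes, against 36.8% of all genes tested. Arntl and Npas2 are among these 9, and their part of the count is not read against that share either. Clock, Cry1, Cry2 and Per1 were not called. The median log2 fold change of the 10 genes was -0.15, beside 0.06 over all genes tested, since opposite changes cancel in it. Because the harvest time is not given, a difference between groups in the time of day and a difference in the clock itself cannot be told apart.

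Among the activators, Arntl had 0.979, 0.597 and 0.694 scaled FPKM in the 3 controls at 30 °C and 4.0, 4.53 and 4.06 in the 3 knockouts. Every knockout lay far above every control, and the knockouts lay close together. On the log2 scale Arntl rose by 1.57 (SE 0.24, limma adjusted p = 0.00191). All log2 fold changes here are of scaled FPKM plus 1, which understates the change of weak genes. Npas2, the partner that can stand in for Clock, had 0.316, 0.0924 and 0.122 in controls and 1.62, 1.21 and 0.916 in knockouts. The groups did not overlap, and the deposited values correspond to 24, 7 and 9 fragments in the controls and 163, 119 and 80 in the knockouts. Npas2 rose by 0.93 (SE 0.14, limma adjusted p = 0.00187). Clock itself had 2.30, 1.96 and 2.46 in controls and 3.43, 3.60 and 3.19 in knockouts. These groups did not overlap either, but the difference of 0.44 on the log2 scale (95% interval -0.12 to 1.0) was not called (limma adjusted p = 0.292).

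Of the repressors, Per2 had 6.27, 8.07 and 6.11 scaled FPKM in the controls at 30 °C and 2.99, 2.39 and 2.56 in the knockouts. All knockouts lay below all controls, and Per2 fell by 1.09 on the log2 scale (SE 0.24, limma adjusted p = 0.0105). Per3, a less essential paralog, had 17.5, 13.6 and 16.4 in controls and 5.14, 7.87 and 4.74 in knockouts. Again no value overlapped, and Per3 fell by 1.30 (SE 0.31, limma adjusted p = 0.0154). Without control 1, knockout 1 or knockout 3 the limma adjusted p of Per3 was 0.0564, 0.062 and 0.0694, and without control 2 that of Per2 was 0.0501. Per1, which is also an acute target of cAMP and glucocorticoid signals, went the other way by its mean. It had 24.4, 42.0 and 26.6 in controls and 70.3, 34.8 and 42.8 in knockouts. The groups overlapped, and the difference of 0.63 (95% interval -0.02 to 1.28) was not called (limma adjusted p = 0.192). Among the cryptochromes, Cry2 had 21.2 to 26.2 in controls and 13.7 to 17.3 in knockouts. That difference of -0.51 (95% interval -0.88 to -0.15) just missed the threshold (limma adjusted p = 0.0616). Cry1 had 3.13 to 4.38 in controls and 4.47 to 4.62 in knockouts, with a difference of 0.22 (95% interval -0.20 to 0.64, limma adjusted p = 0.508).

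Nr1d1, the repressor of the Arntl loop, had 146.2, 109.1 and 127.0 scaled FPKM in the controls at 30 °C and 70.6, 85.0 and 66.8 in the knockouts. Every knockout lay below every control, and Nr1d1 fell by 0.77 on the log2 scale (SE 0.17, limma adjusted p = 0.0098). In FPKM as deposited, without the scaling, the difference was -0.47 (limma adjusted p = 0.0502). Dbp, the output factor, had 121.2, 113.9 and 104.0 in controls and 47.3, 32.4 and 35.3 in knockouts. It showed the largest drop of the 10 genes at 30 °C, 1.55 on the log2 scale (SE 0.29, limma adjusted p = 0.00462). Each of the 9 genes without overlap had p = 0.1 in an exact permutation test (two-sided), and 3 against 3 animals can give no smaller p.

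**Figure D1:**
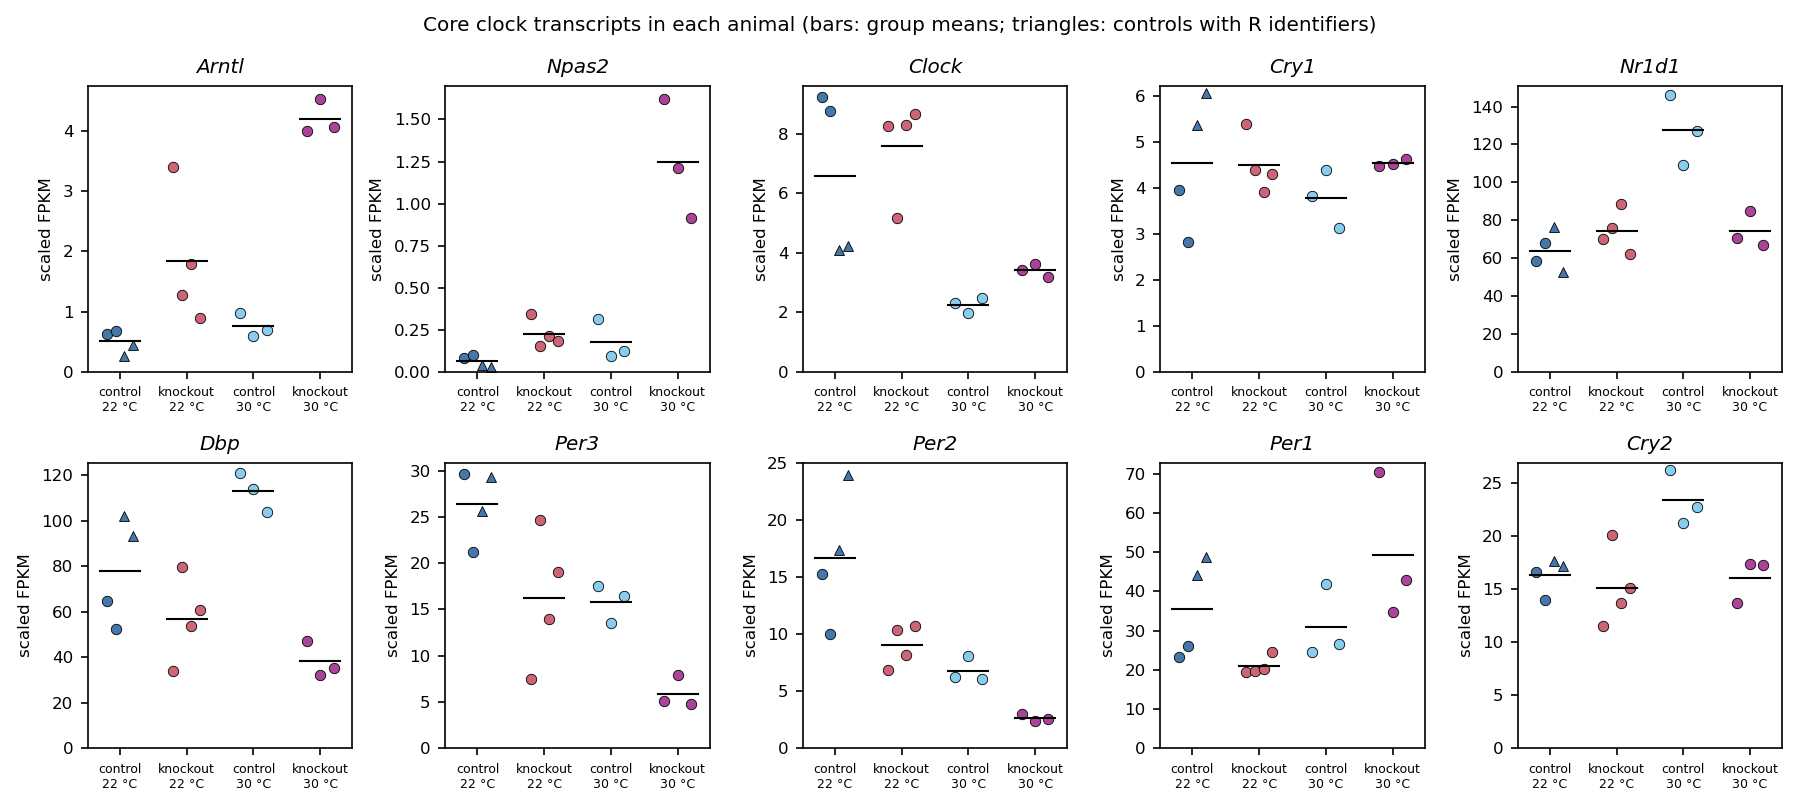
Scaled FPKM of the 10 core clock genes (vertical axes, linear, from 0) in each animal of the 4 groups; each point is 1 animal, each bar a group mean, and triangles are the 2 controls at 22 °C whose identifiers begin with R. In knockouts at 30 °C Arntl reaches 4.0 to 4.53 while no control exceeds 0.979, and Dbp lies at 32.4 to 47.3 while controls at 30 °C lie at 104.0 to 121.2.

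At 22 °C the mean differences of Arntl, Npas2, Per2, Per3 and Dbp had the same sign as at 30 °C and were smaller, and none of the 10 genes was called. Nr1d1, called lower at 30 °C, had the opposite sign at 22 °C (0.21, limma adjusted p = 0.521), as did Per1, not called at either temperature. Over all genes tested 0.91% rose and 1.06% fell in the knockouts at 22 °C. In FPKM as deposited Arntl and Nr1d1 rose, where 3167 genes rose and 81 fell. Knockouts and controls were fully separated for 2 of the 10 genes, Arntl and Npas2, against 9.38% of all genes tested. Both passed the filter only through knockouts, so that count is not read against the share. All others of the 10 genes overlapped. The median log2 fold change of the 10 genes was -0.06, beside 0.00 over all genes. The limma fit gave 4 of them, Arntl, Per1, Per2 and Per3, an unadjusted p under 0.05 (0.00125, 0.0227, 0.00257 and 0.0137), as it did 15.8% of all genes tested. Without the R controls the log2 differences were 0.70 for Arntl, -0.24 for Per1, -0.44 for Per2, -0.71 for Per3 and -0.09 for Dbp (limma adjusted p = 0.175, 0.65, 0.248, 0.293 and 0.869). For Npas2, Nr1d1, Cry1 and Cry2 they were 0.16, 0.21, 0.33 and -0.04 (limma adjusted p = 0.61, 0.496, 0.24 and 0.918).

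Arntl had 0.633, 0.681, 0.266 and 0.445 scaled FPKM in the 4 controls at 22 °C and 3.39, 1.27, 1.78 and 0.898 in the 4 knockouts. Every knockout was above every control, but the knockouts themselves spread widely. The mean was 3.62-fold higher, with a log2 fold change of 0.85 (95% interval 0.40 to 1.30, limma adjusted p = 0.0563). An exact permutation test (two-sided) gave p = 0.0286, which is the lowest possible with 4 against 4 animals and is not adjusted for the 10 genes. Nor does it allow for the filter, which Arntl passed only through knockouts. Npas2 was near the limit of detection, with 0.0841, 0.102, 0.0391 and 0.0291 in controls (6, 7, 3 and 2 fragments) and 0.346, 0.154, 0.211 and 0.181 in knockouts (30, 14, 15 and 15 fragments). Its difference of 0.20 (95% interval -0.06 to 0.46) was not called (limma adjusted p = 0.468). Clock overlapped between the groups, with 9.23, 8.77, 4.09 and 4.24 in controls and 8.26, 5.17, 8.27 and 8.64 in knockouts.

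Per2 had 15.3, 9.99, 17.4 and 24.0 scaled FPKM in the controls at 22 °C and 6.86, 10.4, 8.23 and 10.7 in the knockouts. Only control 2 lay within the range of the knockouts, and the difference was -0.77 (95% interval -1.22 to -0.32, limma adjusted p = 0.0796). Without that animal Per2 was called (-0.98, limma adjusted p = 0.0235). Per3 had 29.6, 21.2, 25.7 and 29.3 in controls and 7.46, 24.6, 13.9 and 19.0 in knockouts. Knockout 2 overlapped the controls, and the difference of -0.77 (95% interval -1.36 to -0.19) was not called (limma adjusted p = 0.177). Per1 had 23.4, 26.1, 44.2 and 48.9 in controls and 19.5, 19.6, 20.2 and 24.6 in knockouts. The difference of -0.68 (95% interval -1.24 to -0.11, limma adjusted p = 0.221) had the opposite sign to that at 30 °C.

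Dbp overlapped widely at 22 °C, with 64.7, 52.2, 102.1 and 93.2 scaled FPKM in controls and 34.1, 79.5, 53.6 and 60.7 in knockouts. Its difference was -0.46 (95% interval -0.99 to 0.07, limma adjusted p = 0.401). Nr1d1 ranged from 52.6 to 76.6 in controls and from 62.0 to 88.6 in knockouts, a difference of 0.21 (95% interval -0.10 to 0.52, limma adjusted p = 0.521). Cry1 and Cry2 overlapped as well, with differences of 0.02 (95% interval -0.34 to 0.38) and -0.13 (95% interval -0.45 to 0.19). Among the knockouts at 22 °C, knockout 1 had the highest Arntl and Npas2 of its group and the lowest Per2, Per3 and Dbp.

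The knockout effect at 22 °C minus that at 30 °C was tested as an interaction. None of the 10 genes was called, and over all 13079 genes 0% were called. At an unadjusted p under 0.05 limma gave 1692 genes, and the smallest limma adjusted p of any gene was 0.0522. Among the clock genes the smallest limma adjusted p belonged to Nr1d1 (0.163), whose difference was 0.98 (95% interval 0.51 to 1.46). Npas2 had a difference of -0.73 (95% interval -1.13 to -0.32, limma adjusted p = 0.19) and Per1 one of -1.31 (95% interval -2.17 to -0.44, limma adjusted p = 0.223). Dbp had 1.09 (95% interval 0.28 to 1.91, limma adjusted p = 0.26) and Arntl -0.72 (95% interval -1.41 to -0.04, limma adjusted p = 0.36). A larger effect at 30 °C was therefore not shown, nor was an equal one.

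**Figure D2:**
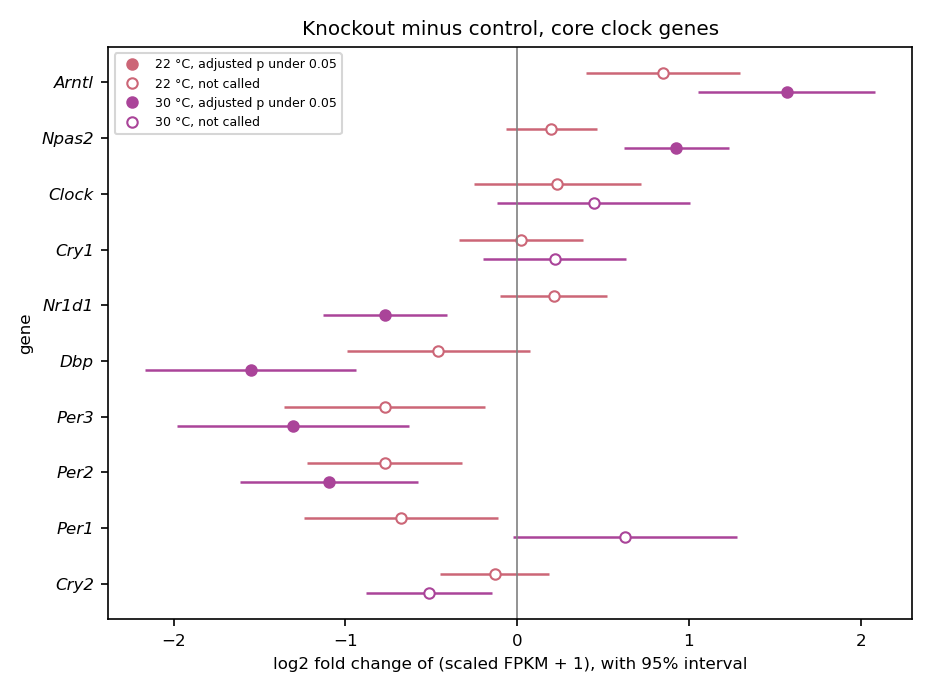
Log2 fold change, knockout minus control, of the 10 core clock genes at 22 °C and at 30 °C (horizontal axis, scaled FPKM plus 1), with 95% intervals from the limma fit; filled points have an adjusted p under 0.05. At 30 °C Arntl (1.57) and Npas2 (0.93) are filled to the right and Dbp (-1.55), Per3 (-1.30), Per2 (-1.09) and Nr1d1 (-0.77) to the left, and at 22 °C no point is filled.

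Housing temperature was compared within each genotype. These comparisons share animals with the knockout comparisons, so their values are not independent of those above. In controls Clock and Per2 were higher at 22 °C than at 30 °C and Nr1d1 and Cry2 were lower, which made 2 genes higher and 2 lower, where 18.2% of all genes tested were higher and 20.5% lower. In knockouts 3 genes were higher at 22 °C (Per2, Per3 and Clock) and 3 lower (Npas2, Arntl and Per1), where 21.8% of all genes were higher and 29.3% lower. Npas2 passed the filter only through the knockouts at 30 °C, and Arntl only through knockouts, of both temperatures. Their part of the count in knockouts is therefore not read against that share.

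Per2 was higher at 22 °C in both genotypes, by 1.12 in controls (SE 0.23, limma adjusted p = 0.00264) and by 1.45 in knockouts (SE 0.23, limma adjusted p = 0.000292). Its mean was 16.7 ± 5.80 scaled FPKM at 22 °C (SD, n = 4) and 6.82 ± 1.09 at 30 °C (SD, n = 3) in controls. Clock was also higher in both, by 1.15 (SE 0.24, limma adjusted p = 0.00343) and by 0.94 (SE 0.24, limma adjusted p = 0.00608). Its lowest animal at 22 °C, at 4.09, lay above its highest animal at 30 °C, at 3.60. Per3 was called in knockouts (1.23, SE 0.29, limma adjusted p = 0.00383) and missed the threshold in controls (0.70, 95% interval 0.07 to 1.33, limma adjusted p = 0.0742).

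Nr1d1 was 1.99-fold lower at 22 °C in controls (-0.99, SE 0.16, limma adjusted p = 0.000821), with every animal at 22 °C below every animal at 30 °C. In knockouts its means were 74.1 at both temperatures, and the difference was 0.00 (95% interval -0.34 to 0.33). Cry2 was 1.43-fold lower at 22 °C in controls (-0.49, SE 0.16, limma adjusted p = 0.0281), a call lost without control 1 or 2 at 22 °C or control 1 or 3 at 30 °C (limma adjusted p from 0.053 to 0.109). Dbp averaged 78.1 ± 23.5 at 22 °C (SD, n = 4) and 113.0 ± 8.60 at 30 °C (SD, n = 3) in controls, which was not called (limma adjusted p = 0.103), and 57.0 ± 18.8 (SD, n = 4) against 38.3 ± 7.93 (SD, n = 3) in knockouts (limma adjusted p = 0.121). In controls Dbp was called lower at 22 °C without the R controls (-0.94, limma adjusted p = 0.0173) and with sample weights (-0.89, limma adjusted p = 0.00446). In knockouts it was called higher at 22 °C with sample weights, with a skeletal muscle covariate and without knockout 1 at 22 °C (limma adjusted p = 0.0232, 0.0356 and 0.0224). Arntl and Npas2 were 2.28-fold and 5.60-fold lower at 22 °C in knockouts (-0.95 and -0.87, limma adjusted p = 0.00379 and 0.000255) and were not called in controls (-0.22 and -0.14, limma adjusted p = 0.449 and 0.415). Npas2 was tested only because the knockouts at 30 °C were high. With no filter on low values both were called in knockouts as well (limma adjusted p = 0.00875 and 0.000168). Per1 was 2.35-fold lower at 22 °C in knockouts (-1.14, SE 0.28, limma adjusted p = 0.00491), with 19.5 to 24.6 against 34.8 to 70.3. Cry1 was not called in either genotype, with differences of 0.18 and -0.02.

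**Figure D3:**
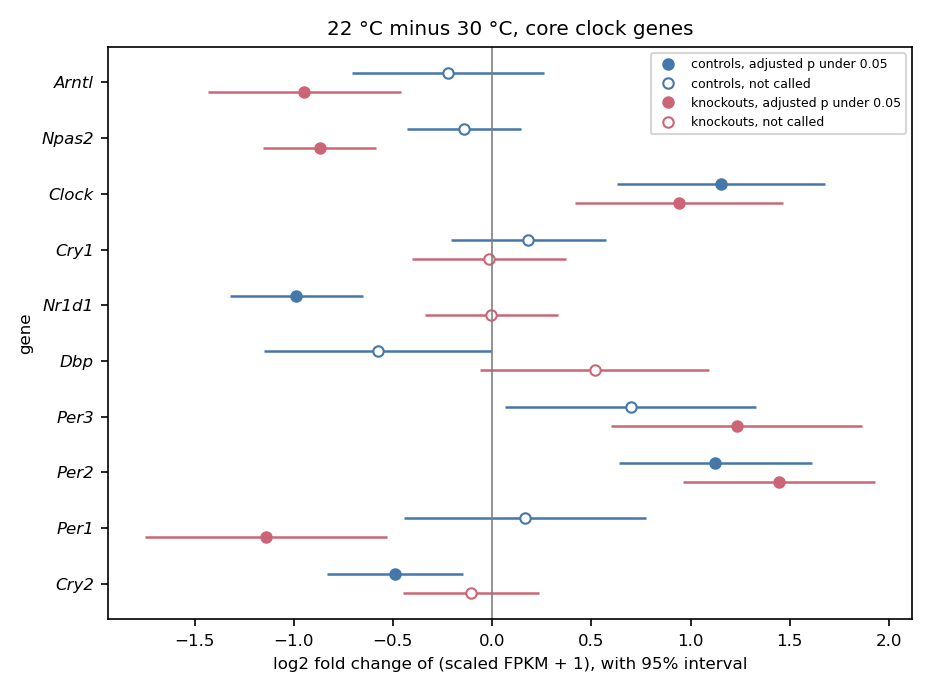
Log2 fold change, 22 °C minus 30 °C, of the 10 core clock genes in controls and in knockouts (horizontal axis, scaled FPKM plus 1), with 95% intervals from the limma fit; filled points have an adjusted p under 0.05. Per2 (1.12 and 1.45) and Clock (1.15 and 0.94) are filled to the right in both genotypes, while Nr1d1 is at -0.99 in controls and at 0.00 in knockouts.

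Ratios of transcripts within a library do not depend on the scaling between libraries. Those of Dbp and Nr1d1 to Arntl contrast genes of opposite daily phase. All ratios are described without a test, because their genes were chosen with the results known. The log2 ratio of Dbp to Arntl was 6.68, 6.26, 8.58 and 7.71 in controls at 22 °C, and 3.33, 5.97, 4.91 and 6.08 in knockouts. At 30 °C it was 6.95, 7.58 and 7.23 in controls and 3.57, 2.84 and 3.12 in knockouts. Knockouts thus lay below controls at both temperatures without overlap, although at 22 °C the highest knockout (6.08) was close to the lowest control (6.26). The controls had nearly the same mean at both temperatures, 7.31 ± 1.05 (SD, n = 4) and 7.25 ± 0.31 (SD, n = 3), while the knockouts had 5.07 ± 1.28 (SD, n = 4) and 3.17 ± 0.37 (SD, n = 3). That likeness of the control means rests on the R controls. At 22 °C they (8.58 and 7.71) lay above all controls at 30 °C, and the other controls (6.68 and 6.26) lay below them all.

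The ratio of Nr1d1 to Arntl showed the same order, with log2 means of 7.06 in controls and 5.50 in knockouts at 22 °C and of 7.42 and 4.14 at 30 °C. The ratio of Per2 to Dbp separated temperatures instead. It was -2.56 to -1.96 in controls and -2.94 to -2.31 in knockouts at 22 °C, and -4.27 to -3.82 and -3.98 to -3.76 at 30 °C. All 8 animals at 22 °C lay above all 6 at 30 °C, while the genotypes overlapped at each temperature. The ratio of Tef to Nfil3, an activator and a repressor at the D-box, had log2 means of 3.45 in controls and 2.52 in knockouts at 22 °C and of 3.77 and 0.58 at 30 °C.

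**Figure D4:**
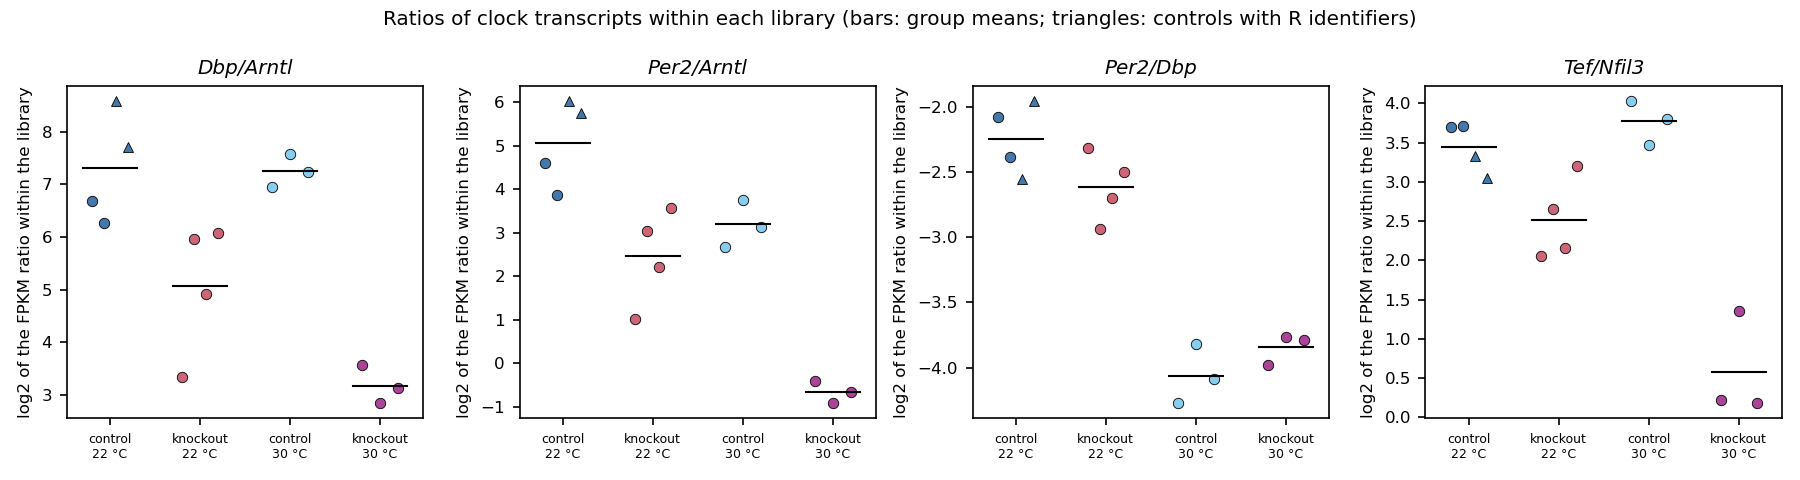
Log2 ratio of pairs of clock transcripts within each library (vertical axes) for the 4 groups; each point is 1 animal, each bar a group mean, and triangles are the 2 controls at 22 °C whose identifiers begin with R. Dbp/Arntl is lower in knockouts at both temperatures (7.31 against 5.07 and 7.25 against 3.17), and Per2/Dbp lies at or above -2.94 at 22 °C and at most at -3.76 at 30 °C.

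A further list held 18 other clock genes, of which 16 were tested (Rorb and Fbxl21 were too low). At 30 °C 1 rose in knockouts and 4 fell, where 8.82% of all genes tested rose and 5.29% fell. At 22 °C 0 rose and 2 fell, where 0.91% rose and 1.06% fell. Their median log2 fold changes were -0.12 at 30 °C and -0.03 at 22 °C, beside 0.06 and 0.00 over all genes tested. The genes called were output factors and repressors, while none of the kinases and ubiquitin ligases of the list that set PER and CRY stability (Csnk1d, Csnk1e, Btrc and Fbxw11) was called between genotypes. Csnk1d was still higher in every knockout than in every control at 22 °C (32.6 to 37.5 against 24.5 to 31.2 scaled FPKM) and 30 °C (35.2 to 40.5 against 30.2 to 32.5). So were Csnk1e at 30 °C and Fbxw11 at 22 °C, while the other comparisons of these genes overlapped. Over all genes tested 9.38% were separated at 22 °C and 36.8% at 30 °C.

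Tef and Hlf, the relatives of Dbp, fell with it at 30 °C. Tef had 74.1, 70.0 and 69.5 scaled FPKM in controls and 24.7, 29.7 and 26.0 in knockouts (-1.38, SE 0.17, limma adjusted p = 0.000385). Hlf had 8.21, 9.29 and 10.6 in controls and 1.78, 3.10 and 2.46 in knockouts (-1.60, SE 0.23, limma adjusted p = 0.00114). Neither gene overlapped between the genotypes at 30 °C. Nfil3, the repressor at the same sites, rose from 4.54, 6.29 and 4.97 to 21.3, 11.6 and 23.0 (1.60, SE 0.27, limma adjusted p = 0.00296). Nr1d2, the paralog of Nr1d1, fell by 0.57 (SE 0.15, limma adjusted p = 0.0257), a call lost without control 1 or 3 or knockout 1 or 3 at 30 °C (limma adjusted p from 0.0758 to 0.113). It was also lost in FPKM as deposited (-0.30, limma adjusted p = 0.138) and with equal totals over nuclear genes (-0.43, limma adjusted p = 0.0852). Ciart fell by 0.999 (SE 0.21, limma adjusted p = 0.00945).

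At 22 °C the called genes were Ciart and Tef. Ciart had 24.1, 13.6, 20.4 and 21.8 scaled FPKM in controls and 10.2, 11.2, 7.79 and 11.7 in knockouts, without overlap (-0.89, SE 0.18, limma adjusted p = 0.0286). Tef had 117, 86.3, 114 and 112 in controls and 52.2, 66.9, 69.2 and 89.6 in knockouts (-0.64, SE 0.15, limma adjusted p = 0.0424). Both calls were lost without control 1, 3 or 4 or without knockout 1, 2 or 3, with limma adjusted p of 0.0556 to 0.0824 for Ciart and 0.0676 to 0.125 for Tef. Without both R controls these were 0.106 and 0.135. Both calls were also lost with no filter on low values, with the 2 groups fitted alone and with sample weights (limma adjusted p = 0.0646, 0.0702 and 0.0622 for Ciart and 0.0841, 0.129 and 0.0556 for Tef). That of Tef was lost too in FPKM as deposited, with quantile normalization, with equal nuclear totals and with a skeletal muscle covariate (limma adjusted p = 0.103, 0.106, 0.0844 and 0.0538). Bhlhe40, a repressor that answers many acute signals, was not called at either temperature (0.45 and -0.47, limma adjusted p = 0.573 and 0.487).

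**Figure D5:**
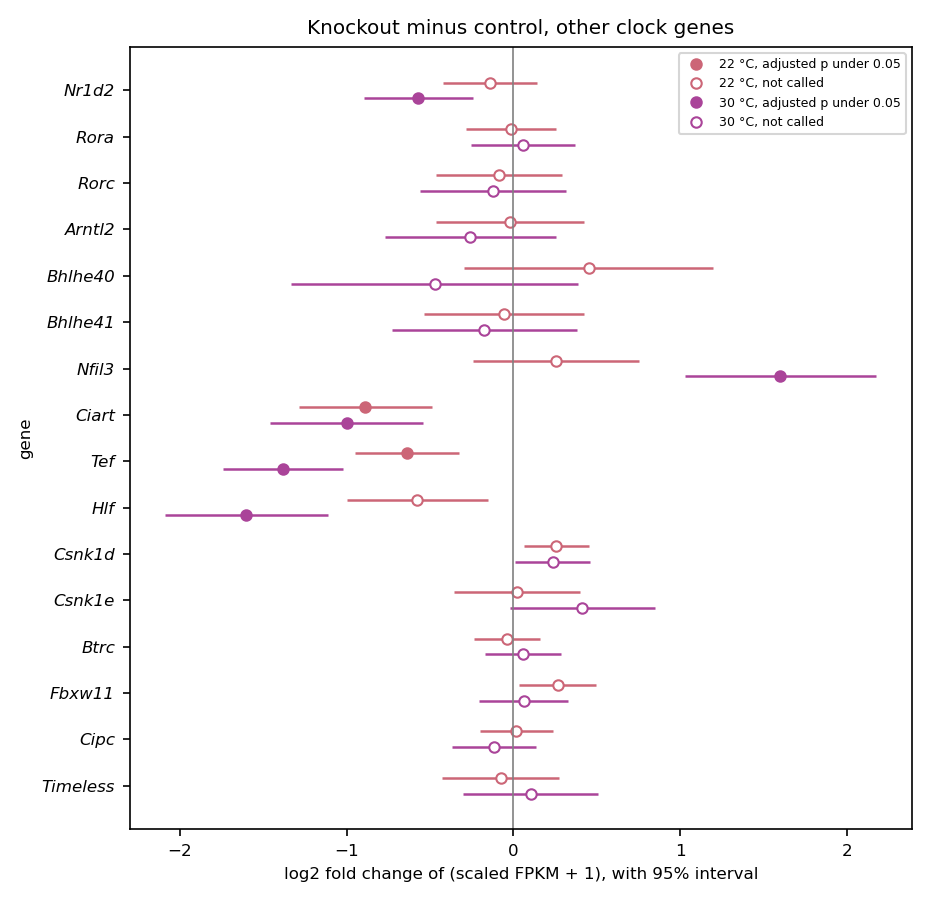
Log2 fold change, knockout minus control, of the 16 other clock genes tested at 22 °C and at 30 °C (horizontal axis, scaled FPKM plus 1), with 95% intervals from the limma fit; filled points have an adjusted p under 0.05. At 30 °C Nfil3 (1.60) is filled to the right and Hlf (-1.60), Tef (-1.38), Ciart (-0.999) and Nr1d2 (-0.57) to the left, and at 22 °C Ciart (-0.89) and Tef (-0.64) are filled.

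Between temperatures, 6 of these 16 genes were higher at 22 °C and 1 lower in controls, and 8 were higher and 2 lower in knockouts. Over all genes tested 18.2% were higher and 20.5% lower at 22 °C in controls, and 21.8% and 29.3% in knockouts. In controls the calls of Nfil3 and Tef were lost without the R controls (limma adjusted p = 0.157 and 0.0561), and that of Nfil3 also with sample weights and without control 3 or 4 at 22 °C or control 1 or 3 at 30 °C (limma adjusted p from 0.05 to 0.0791). Nr1d2 was higher at 22 °C in both genotypes, by 1.30 in controls and 1.73 in knockouts (limma adjusted p = 0.000114 and 1.25e-05), whereas its paralog Nr1d1 was lower at 22 °C in controls. Ciart was higher by 1.51 and 1.62 (limma adjusted p = 0.000365 and 7.91e-05), the same direction as Per2. Timeless was lower at 22 °C by 0.76 and 0.94 (limma adjusted p = 0.00527 and 0.00089).

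Lists of neighbouring responses were read beside the clock, against the 8.82% of all genes tested that rose in knockouts at 30 °C and the 5.29% that fell. Of 9 genes known as rhythmic clock outputs, 0 were called at 22 °C between genotypes, and at 30 °C 1 rose and 2 fell: Cdkn1a (2.0, limma adjusted p = 0.00672), Pnpla2 (-0.69, limma adjusted p = 0.00924) and Por (-0.54, limma adjusted p = 0.0202). With quantile normalization the difference of Pnpla2 was 0.024 (limma adjusted p = 0.957). Neither Pnpla2 nor Por was called in FPKM as deposited (limma adjusted p = 0.0502 and 0.14) or with the 2 groups fitted alone (limma adjusted p = 0.054 and 0.0552), and Por was not called without control 1 or 2 or knockout 2 (limma adjusted p from 0.0515 to 0.0777). Of 10 glucocorticoid response genes, 1 rose in knockouts at 30 °C, Dusp1 (2.09, limma adjusted p = 0.0425), and 0 changed at 22 °C. That call was lost with no filter, with robust variance moderation, with the 2 groups fitted alone and without control 1 or 3 or any 1 of the knockouts (limma adjusted p from 0.0569 to 0.153). Of 10 genes that follow body or tissue temperature, 3 rose at 30 °C (Dnajb1, Hsp90aa1 and Hspa1b), and the cold-inducible Cirbp and Rbm3 were not among them. Each of these 3 calls was lost without control 1 or 3 or knockout 1 or 3 at 30 °C (limma adjusted p from 0.0601 to 0.183).

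Over all genes tested, 8.82% rose in knockouts at 30 °C and 0.91% at 22 °C. Of 10 cAMP and immediate early genes, 5 rose in knockouts at 30 °C, among them Fos (2.92, limma adjusted p = 0.0116) and Fosb (2.33, limma adjusted p = 0.00462). With the 2 groups fitted alone none of the 5 was called (limma adjusted p from 0.0561 to 0.153), and Sik1, Nr4a3 and Junb each lost the call without at least 1 animal as well (limma adjusted p from 0.0547 to 0.115). The summed level of that list was 779.9 to 1323 scaled FPKM in these knockouts and 119.0 to 671.2 in their controls, with 0 genes at 0, while at 22 °C it was 69.9 to 111.6 in knockouts and 41.6 to 138.8 in controls. At 22 °C 1 gene of the list rose, Ppargc1a (1.14, limma adjusted p = 0.0412), the coactivator of mitochondrial biogenesis. That call was lost with no filter, with the groups fitted alone and without control 1, 2 or 4 or knockout 1, 3 or 4 at 22 °C (limma adjusted p from 0.0693 to 0.125). Per1 shares such signals, and their part in its values was not tested.

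Levels of cell type markers differed between the groups as well. Over all genes tested, 8.82% rose and 5.29% fell in knockouts at 30 °C, and 0.91% rose and 1.06% fell at 22 °C. The 8 brown adipocyte markers summed to 6018 to 8003 scaled FPKM in knockouts at 30 °C and to 11008 to 13693 in their controls, and to 11925 to 15588 and 15377 to 20684 at 22 °C. Fabp4 alone, at 3762 to 13712, was the largest part of each sum. Of these markers 0 were called higher and 4 lower in knockouts at 30 °C, and 1 higher and 1 lower at 22 °C. The 8 macrophage markers summed to 450.0 to 1548 in knockouts at 30 °C and to 71.7 to 290.4 in their controls, with 7 of 8 called higher, and to 57.1 to 154.5 and 35.1 to 53.6 at 22 °C, with 0 called. The 8 skeletal muscle markers ranged from 20.9 to 12810 in controls at 30 °C, from 1895 to 8037 in knockouts there, and from 409.3 to 6152 and 506.7 to 1337 in controls and knockouts at 22 °C. The 4 white adipocyte markers overlapped between all groups (71.3 to 194.5). None of these markers was at 0 in any library. With a skeletal muscle score as a covariate 6 of the 10 clock genes were called between genotypes at 30 °C and 0 at 22 °C. No share of all genes called in that fit stands beside these counts, so they are not read as a result about the clock genes. The part of other cells, muscle included, in the clock differences was not tested.

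The controls at 22 °C were not uniform. The identifiers of 2 of them (controls 3 and 4) begin with R and those of all 12 other animals with E, and the labels do not say what the letter stands for. The pairs did not overlap for 8 of the 10 clock genes, against 56.6% of all genes tested. Clock was 4.09 to 4.24 scaled FPKM in the R controls and 8.77 to 9.23 in the E controls. Dbp was 93.2 to 102.1 against 52.2 to 64.7, and Per1 was 44.2 to 48.9 against 23.4 to 26.1. Arntl and Npas2 were lower in the R controls, and Per2, Cry1 and Cry2 were higher. All knockouts at 22 °C had E identifiers; without the R controls 0 of the 10 genes were called at 22 °C, and the difference of Clock changed sign, from 0.23 to -0.25.

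Genes that varied like Dbp and Arntl from animal to animal were ranked by Pearson's r of log2 values over the 14 animals after each group's mean was subtracted. They were taken as the highest of 7759 genes, so the values are a description without a test, and animals share depth and tissue makeup. Nearest to Dbp were Fads1, a fatty acid desaturase (r = 0.92, Spearman's rho 0.91), Pdgfa, Gamt, Ift27 and Rbfox2 (r from 0.87 to 0.88). Leaving out the 2 animals farthest from the median of Dbp gave r of 0.81 to 0.92. Nearest to Arntl were Unc119b (r = 0.91, rho 0.84), Arid1b, Rom1, Taf5l and Ap1g2, but without 2 animals these fell to 0.34 to 0.73, so they rest largely on those animals. No other clock gene was among the 5 nearest of either.

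Parts of 4 of the 10 genes share their place with a gene on the opposite strand in the GENCODE M21 annotation, and whether the counting used strand is not given in the sources used here. Sphk2 covers 18.0% of the exon bases of Dbp, Thra 8.55% of those of Nr1d1, D930015M05Rik 4.67% of those of Cry2 and Gm45355 0.439% of those of Arntl. Sphk2 had 7.43 to 10.6 scaled FPKM in controls and 11.8 to 18.9 in knockouts at 30 °C. Its part in the difference of Dbp was not tested. Thra had 67.6 to 82.0 in controls and 78.3 to 94.0 in knockouts at 30 °C, and 41.2 to 47.5 in controls at 22 °C. Thra was thus higher at 30 °C in controls, as Nr1d1 was, and its part in that difference of Nr1d1 was not tested.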

How the data were processed

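RNA of brown adipose tissue from 14 mice was sequenced on an Illumina instrument. The authors deposited 1 table of FPKM with a column per animal; the genome build is mm9, per the submitters' processing notes. The aligner, counting tool, annotation and use of strand are not given in the sources used here. Symbols came from GENCODE M21, which matched 34490 of 35275 Ensembl identifiers. FPKM were divided by the median ratio to the geometric mean over 10021 nuclear genes of at least 1 FPKM in every library (factors 0.823 to 0.947 in controls, 1.05 to 1.20 in knockouts). Depth was recovered from low values, of which 90.9% to 92.9% were whole fragments within 0.05. Fragment numbers and precision cover counting error only.

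Values were tested as log2 of scaled FPKM plus 1, with limma 3.58.1 in R 4.3.3 (group means, eBayes with trend), and Benjamini-Hochberg adjustment over 13079 genes. Groups came from genotype and temperature in the labels. Single values were compared by exact permutation tests. The test was checked on simulated data. Python 3.11.15, numpy 2.4.6, pandas 2.3.3, scipy 1.17.1 and matplotlib 3.10.9 made tables and plots.

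The 10 genes and all lists were chosen with earlier results of these data known. Named were all 10 genes, called genes of the other lists (at most 6 per list and comparison, by adjusted p), Nr1d2, Nfil3, Tef, Bhlhe40 and Ciart always, the 5 genes most like Dbp and Arntl, overlapping genes, Lrpprc and Ucp1. The sex-linked genes, Cirbp, Rbm3 and uncalled kinases and ligases fall outside that rule and were chosen after their values were seen. Alternatives covered the pseudocount, filter, scaling, eBayes options, sample weights, the groups fitted, the R controls and each animal in turn. A skeletal muscle covariate was added after the data were seen. Promoters came from RefSeq on GRCm38.p6, and no coordinates of the deposited table were used. 1 other clock gene is not reported here.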

Additional observations from a re-analysis of the deposited data

Results flagged for a closer look

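Among knockouts at 22 °C, 1 animal stood apart for each of 2 clock genes by Dixon's ratio, the gap to the nearest animal over the range of the group. Clock was lowest in knockout 2 at 5.17 scaled FPKM, with a gap of 0.891 of the range. Per1 was highest in knockout 4 at 24.6 scaled FPKM, with a gap of 0.858 of the range. The screen covered each of the 10 clock genes in both groups of 4 animals, controls and knockouts at 22 °C. Chance alone marks about 1 in 20 such sets in this way.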

How the results depend on the processing

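No paired analysis was possible because the animals carry individual identifiers and no label ties animals of different groups. At 30 °C between 4 and 7 of the 10 clock genes were called under every alternative run; the 4 with a filter on a mean FPKM of at least 5 are those left after Arntl and Npas2 drop out. In each fit at 30 °C that kept them, Arntl, Npas2 and Dbp were called. Npas2 was no longer tested when any knockout at 30 °C was left out. Cry2 was called with quantile normalization, with sample weights and with the 2 groups fitted alone. Between temperatures 3 to 5 were called in controls and 4 to 7 in knockouts. At 22 °C, where 0 were called between genotypes, 1 was called with a pseudocount of 0.1, with an equal nuclear total in each library and with sample weights (Arntl each time), 2 with FPKM as deposited (Arntl and Nr1d1), and 0 to 1 when each animal was left out (Per2 without control 2, Arntl without knockout 4). In the interaction 2 were called with sample weights (Nr1d1 and Dbp) and 0 to 1 when each animal was left out (Nr1d1 without knockout 2 at 30 °C). The number of all genes called moved too. At 22 °C it was 258 in the main fit, 460 with the equal nuclear total and 3248 in FPKM as deposited. In the interaction it ranged from 0 to 212 over the alternatives. The counts of clock genes under alternatives are therefore not read as a result about the clock genes. The cause of these changes was not tested.

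All sign changes were of differences that were not called, except Pnpla2. Between genotypes at 22 °C, Cry2 and Nr1d2 became 0.16 and 0.16 in FPKM as deposited and 0.0065 and 0.002 with the equal nuclear total, Cry1 became -0.016 with quantile normalization, Clock, Cry2 and Dbp became -0.17, 0.083 and 0.008 with sample weights, and Clock became -0.25 without the R controls. At 30 °C Pnpla2 became 0.024 with quantile normalization. In controls between temperatures, Npas2 became 0.028 with quantile normalization, Per1 and Cry1 became -0.17 and -0.14 with sample weights and -0.28 and -0.13 without the R controls. In knockouts between temperatures, Cry1, Cry2 and Nr1d1 became 0.14, 0.033 and 0.11 with quantile normalization, Nr1d1 became 0.013 when these groups were fitted alone and 0.077 with sample weights, and Cry1 and Nr1d1 became 0.11 and 0.0002 with the muscle covariate. In the interaction Cry1 became 0.088 with sample weights and 0.11 without the R controls. Leaving out each animal gave -0.15 to 0.15 for Cry1 between genotypes at 22 °C, -0.0053 to 0.40 for Per1 in controls between temperatures, -0.24 to 0.0093 for Cry2, -0.092 to 0.098 for Nr1d1 and -0.089 to 0.036 for Cry1 in knockouts between temperatures, and -0.048 to 0.26 for Ciart in the interaction.

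Over all genes, the number called ranged from 71 to 3248 between genotypes at 22 °C, from 817 to 4571 at 30 °C and from 0 to 212 in the interaction, most with FPKM as deposited or sample weights. Depth limits Npas2 most, at 2 to 30 fragments in the animals at 22 °C.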
